A study of Mus musculus with 6 samples.

Results

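The laminin and basement membrane genes described here are Lama2, Lama4, Lama5, Lamb1, Lamb2, Lamc1, Nid1, Nid2, Hspg2 and Agrn. These genes were chosen by their symbols, with earlier results of these data known. They are 10 of the 23367 gene entries measured, and all 10 passed the filter on low counts that left 16882 genes in the test. Polyadenylated RNA came from the gastrocnemius, a calf muscle, of wild type FVB mice, and no group carried an allele or a treatment. The 6 libraries covered embryonic day 18.5 (E18.5, 1 library from pooled male and female mice), postnatal day 2 (PN2, 1 library from pooled males), PN14 (2 male libraries), PN28 (1 male library) and the adult at 22 weeks (1 male library). Pooling stands in place of biological replication at E18.5 and PN2, and the sex of the E18.5 pool differed from that of all later libraries.

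Basement membranes are thin sheets of extracellular matrix that wrap each muscle fibre, capillary and nerve. Laminins are secreted trimers of an α, a β and a γ chain that self-assemble into a network on the cell surface, where integrins and the glycosylated receptor dystroglycan hold it. Nidogens and the heparan sulfate proteoglycans perlecan (Hspg2) and agrin (Agrn) join this network to collagen IV and to cells. In muscle, the laminin α2 chain is the main α chain of the fibre sheath and its loss causes a congenital muscular dystrophy, while the β2 chain and agrin are known for their part in building the neuromuscular junction.

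From E18.5 to the adult, 7 of the 10 genes were called lower (adjusted p below 0.05 and 2-fold or more) and 0 higher. Of all genes tested, 23.6% were called lower. The fall was steepest for the laminin β1 chain gene Lamb1, the nidogen gene Nid2 and the laminin α4 chain gene Lama4, and it was also called for Agrn, Nid1, Hspg2 and Lamc1. Lama2, Lama5 and Lamb2 were not called. The adult library held more Lamb2 than Lamb1 per length of transcript, the opposite of E18.5. Over the 4 shorter intervals between consecutive stages, the same test called no member.

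The genes lie apart from each other, on 8 chromosomes of the mouse mm9 assembly (NCBIM37, GENCODE M1 gene models). The α chain genes are Lama2 at chr10:26701094-27336748 on the minus strand, Lama4 at chr10:38685321-38829994 on the plus strand and Lama5 at chr2:179911078-179960564 on the minus strand. Lamb1 lies at chr12:31950099-32014509 and Lamb2 at chr9:108382193-108392861, both on the plus strand, and Lamc1 at chr1:155066052-155179916 on the minus strand. Nid1 lies at chr13:13529869-13604542 and Nid2 at chr14:20570479-20631009, both on the plus strand. Hspg2 at chr4:137024634-137126545 (plus strand) and Agrn at chr4:155539399-155571536 (minus strand) share a chromosome. Lamb1 and Lamb2 each have 33 exons in their longest model, but the Lamb1 gene spans 64411 bases and the Lamb2 gene 10669. The annotation places a gene or pseudogene on the opposite strand within the span of Lamb1 (Gm11053), Lamc1 (Gm8818) and Nid2 (2700060E02Rik) and a small nucleolar RNA within that of Lama2, and reads from shared bases cannot be told apart if strand was not used in counting.

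The sequence just before the transcription start is shown for the genes at the ends of the range, Lamb1, which fell most from E18.5 to adult, and Lamb2, Lama5 and Lama2, which were not called. The bases come from RefSeq's GRCm38.p6 table, which held 7 of the 10 genes (Lama4, Lamc1 and Nid2 had no entry). They cover chr12:31265043-31265233 (plus strand) for Lamb1, chr9:108479612-108479861 (plus) for Lamb2, chr2:180225860-180226109 (minus) for Lama5 and chr10:27616943-27617192 (minus) for Lama2, read 5′ to 3′ along the gene. Capitals mark the GC box GGGCGG on either strand, the core of sites bound by the Sp family of factors.
Lamb1: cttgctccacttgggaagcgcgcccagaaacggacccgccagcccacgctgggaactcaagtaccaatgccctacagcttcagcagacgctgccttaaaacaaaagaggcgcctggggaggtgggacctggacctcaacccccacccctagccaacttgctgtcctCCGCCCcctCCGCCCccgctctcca
Lamb2: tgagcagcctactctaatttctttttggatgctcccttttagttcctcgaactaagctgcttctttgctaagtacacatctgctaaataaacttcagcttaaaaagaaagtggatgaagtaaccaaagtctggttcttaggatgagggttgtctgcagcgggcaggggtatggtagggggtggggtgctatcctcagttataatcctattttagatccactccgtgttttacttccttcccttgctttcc
Lama5: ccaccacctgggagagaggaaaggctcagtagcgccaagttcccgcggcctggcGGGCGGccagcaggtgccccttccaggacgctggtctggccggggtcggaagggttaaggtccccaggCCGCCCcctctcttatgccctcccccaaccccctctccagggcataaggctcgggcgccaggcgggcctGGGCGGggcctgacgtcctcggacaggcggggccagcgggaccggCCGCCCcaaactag
Lama2: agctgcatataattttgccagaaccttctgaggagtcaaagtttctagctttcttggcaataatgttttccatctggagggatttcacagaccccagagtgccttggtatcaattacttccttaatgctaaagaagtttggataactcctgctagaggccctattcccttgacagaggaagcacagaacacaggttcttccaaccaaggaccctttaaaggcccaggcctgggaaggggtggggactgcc
The Lamb1 stretch was 63.9% G and C and held 2 GC boxes, whereas the Lamb2 stretch was 43.6% G and C and held none. Lama5 (72.4%, 4 boxes) and Lama2 (47.2%, none), neither of which was called, differed in the same respect. A GC box was found in 32.7% of the 32851 promoter windows of the table, so its presence in a window is common. Of the other motifs searched on both strands, CCAAT, held by 33.8% of windows, occurred once each in Lamb1 and Nid1. The TATA sequence TATAAA (12.4% of windows), the E-box CAGCTG (13%) and the AP-1 sequence TGANTCA (6.75%) were not found in the windows of the 7 genes. These matches describe letters in a window and were not tested against expression.

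Levels are given in FPKM as deposited, which are fragments scaled to transcript length and to the library's total, and comparisons between stages use the deposited counts in edgeR's quasi-likelihood test with TMM normalisation. Calls required both an adjusted p below 0.05 (Benjamini-Hochberg over the 16882 genes) and a difference of 2-fold or more. The libraries held 125402932 to 157868359 counts, and the members between 2231 and 211290 counts in any library, so counting error was small. Only PN14 had 2 libraries, and their spread (common biological coefficient of variation 0.188) stands for that of every stage in the fit. The 20 most abundant genes took 16% of counts at E18.5 and 36.9% in the adult, which bears on scaling: over the genes tested, the median log2 difference between E18.5 and the adult was −0.054 with TMM and −1.08 with scaling to library size alone. The TMM and library size medians were −0.011 and −0.012 for PN2 against E18.5, −0.012 and −0.66 for PN14 against PN2, −0.015 and −0.25 for PN28 against PN14, and −0.014 and −0.15 for the adult against PN28. FPKM follow library size, so a fold read from FPKM contains this shift and a fold from the TMM fit does not. Acta1, the skeletal muscle actin, was at 11979 FPKM or more in every library, and none of 6 muscle fibre markers was at 0. Each library ran on its own sequencing lane, so lane and stage cannot be told apart.

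**Figure D1:**
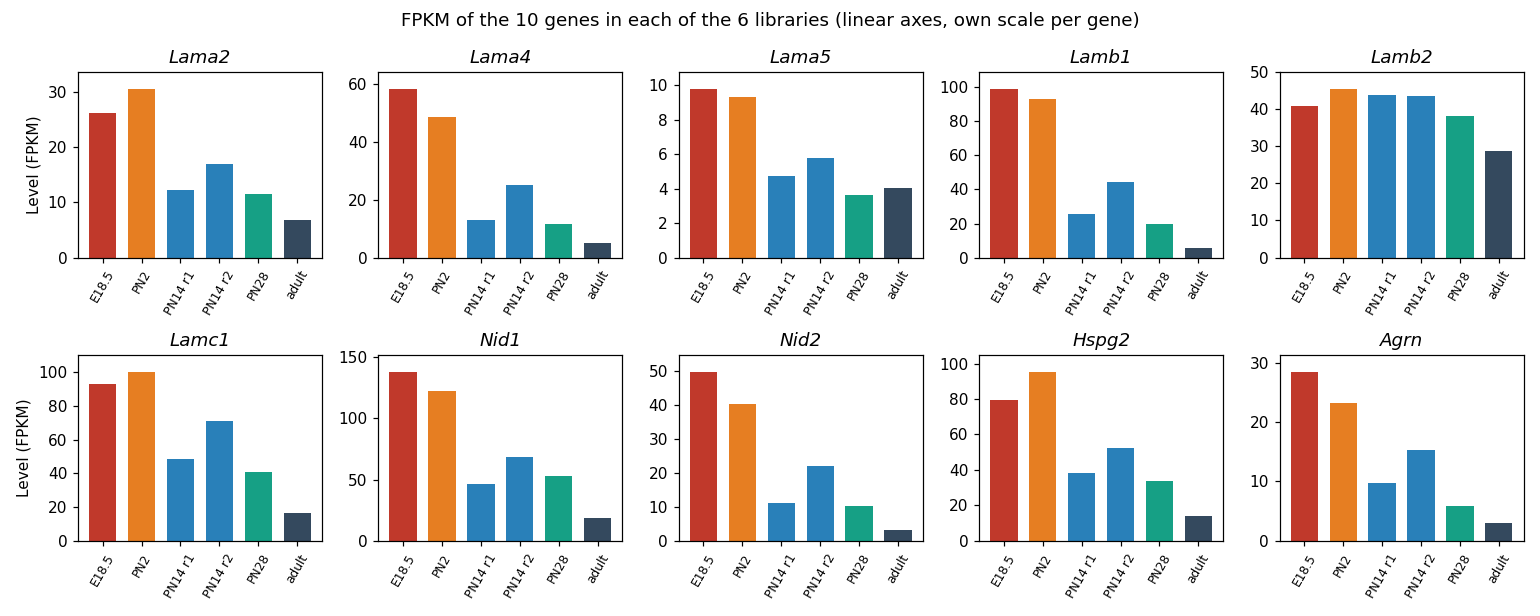
FPKM (vertical axis, linear, from 0, a separate scale for each gene) of the 10 genes in the 6 libraries, 1 bar per library with no error bar; r1 and r2 are the 2 PN14 libraries. Lamb1 went from 99.18 at E18.5 to 5.66 in the adult, while Lamb2 stayed between 28.64 and 45.56.

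The 3 α chains, which carry the receptor-binding end of the trimer, differed in how far they fell. Lama4, the α4 chain known from capillaries and peripheral nerve, stood at 58.5 FPKM at E18.5, 48.84 at PN2, 12.99 and 25.25 at PN14, then 11.74 at PN28 and 4.96 in the adult. Its adult level was below that of every earlier library, and its fitted log2 fold change from E18.5 was −2.53 (SE 0.398, edgeR adjusted p = 0.00397). Lama2, the α2 chain of the fibre sheath, stood at 26.16 FPKM at E18.5, 30.63 at PN2, 12.29 and 17.06 at PN14, then 11.55 at PN28 and 6.78 in the adult. Its log2 fold change was −0.92 (SE 0.267, edgeR adjusted p = 0.0297), past the p threshold and short of the 2-fold threshold. Lama5, the α5 chain found in vessels and at the mature synapse, was the lowest of the 3 in every library, at 9.8 FPKM at E18.5, 9.34 at PN2, 4.74 and 5.76 at PN14, then 3.65 at PN28 and 4.04 in the adult. Scaled by TMM it hardly moved, between 52.8 and 76.7 CPM (counts scaled to the library's normalised total) over the 6 libraries, with a log2 fold change of −0.25 (SE 0.204, edgeR adjusted p = 0.328). With library size alone both Lama2 and Lama5 were called lower in the adult.

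The β chains parted. Lamb1, the β1 chain of most embryonic laminins, stood at 99.18 FPKM at E18.5, 93.09 at PN2, 25.74 and 44.32 at PN14, then 19.63 at PN28 and 5.66 in the adult. Its fitted log2 fold change of −3.11 (SE 0.385, edgeR adjusted p = 0.00216) was the largest fall among the members. Lamb2, the β2 chain concentrated at the neuromuscular junction, stood at 40.77 FPKM at E18.5, 45.56 at PN2, 43.9 and 43.73 at PN14, then 38.07 at PN28 and 28.64 in the adult. At E18.5, 6 of the other members had a higher FPKM than Lamb2, and in the adult none had. The direction of Lamb2 from E18.5 to the adult depended on scaling, with a log2 fold change of 0.52 by TMM (SE 0.302, edgeR adjusted p = 0.193) and −0.51 by library size, neither of them called.

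Lamc1 encodes the γ1 chain, the partner of nearly all laminins of muscle. It stood at 92.93 FPKM at E18.5, 100.17 at PN2, 48.56 and 71.34 at PN14, then 40.63 at PN28 and 16.4 in the adult. By TMM the libraries up to PN28 lay between 393 and 538 CPM and the adult at 174, and the log2 fold change from E18.5 to the adult was −1.48 (SE 0.373, edgeR adjusted p = 0.0189).

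The nidogens, which bridge laminin γ1 and collagen IV, both fell. Nid1 had the highest FPKM of the 10 genes at E18.5, with 137.89, followed by 122.22 at PN2, 46.27 and 68.73 at PN14, then 53.09 at PN28 and 18.47 in the adult. Nid2 stood at 49.62, 40.19, 11.09 and 22.11, 10.31 and 3.23 FPKM in the same order, and in the adult only Agrn was lower. The log2 fold change from E18.5 to the adult was −1.87 for Nid1 (SE 0.372, edgeR adjusted p = 0.00836) and −2.92 for Nid2 (SE 0.401, edgeR adjusted p = 0.00274).

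The proteoglycans fell as well. Hspg2, which encodes perlecan, stood at 79.33 FPKM at E18.5, 95.21 at PN2, 38.08 and 52.11 at PN14, then 33.73 at PN28 and 13.75 in the adult, a fitted log2 fold change of −1.50 (SE 0.416, edgeR adjusted p = 0.0255). Agrn, whose nerve-derived form gathers acetylcholine receptors under the nerve ending and whose other forms are made by muscle and vessels, stood at 28.45 FPKM at E18.5, 23.25 at PN2, 9.8 and 15.31 at PN14, then 5.85 at PN28 and 3.06 in the adult. Its log2 fold change was −2.19 (SE 0.28, edgeR adjusted p = 0.00231). The gene values do not separate the forms of Agrn.

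Counted together, 7 of the 10 genes were called lower from E18.5 to the adult and 0 higher, where 23.6% of all genes tested were called lower. The median log2 fold change of the members was −1.69. With library size alone, 9 of 10 were called lower (all except Lamb2), where 45.6% of all genes tested were, and the median of the members was −2.71. In bulk RNA, fewer cells of a type and less RNA per cell cannot be told apart, and this holds for each of these values.

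**Figure D2:**
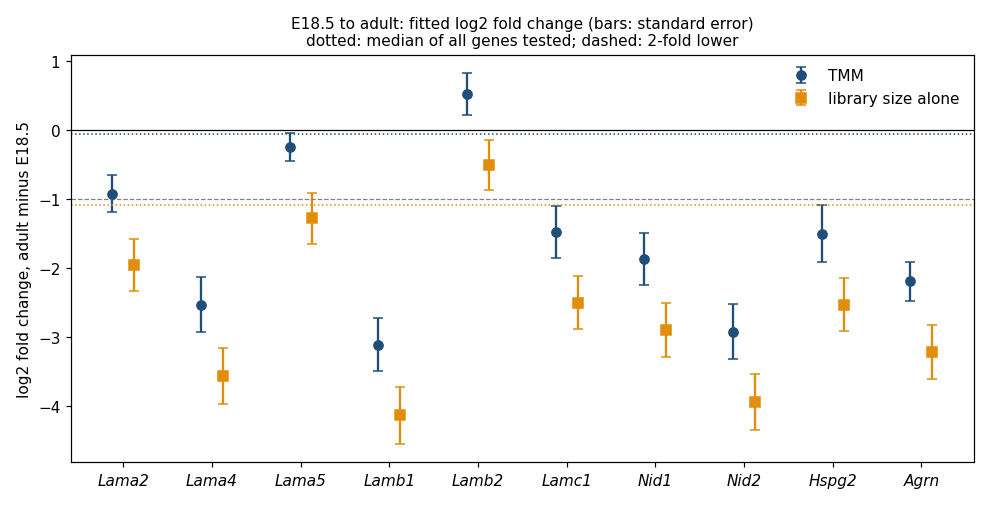
Fitted log2 fold change from E18.5 to the adult (vertical axis, adult minus E18.5) for the 10 genes with TMM (circles) and with library size alone (squares); bars are standard errors, dotted lines the median of all genes tested, the dashed line a 2-fold fall. Lamb2 lies above 0 with TMM (0.52) and below it with library size (−0.51), and Lamb1 is lowest under both.

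The make-up of the chain families within a library does not depend on scaling between libraries. Lamb2 made up 29.1% of the summed FPKM of Lamb1 and Lamb2 at E18.5, 32.9% at PN2, 63.0% and 49.7% at PN14, then 66.0% at PN28 and 83.5% in the adult. The ratio of Lamb2 to Lamb1 thus went from 0.411 at E18.5 to 5.06 in the adult. The PN14 libraries lay on both sides of equal levels, at ratios of 1.71 and 0.987. Taken on counts, the Lamb2 share was 28.6% at E18.5 (95% Wilson interval 28.3 to 28.8, counting error only) and 83.1% in the adult (82.7 to 83.6).

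Among the α chains, Lama4 made up 61.9% of the summed FPKM at E18.5 and 55.0% at PN2, then 43.3% and 52.5% at PN14, then 43.6% at PN28 and 31.4% in the adult. The Lama2 share was 27.7% at E18.5, 34.5% at PN2, 40.9% and 35.5% at PN14, then 42.9% at PN28 and 43.0% in the adult, where it was the leading α chain. On counts, which favour long transcripts, Lama2 led from PN2 on. Lama5 made up 10.4% at E18.5, 10.5% at PN2, 15.8% and 12.0% at PN14, then 13.5% at PN28 and 25.6% in the adult. For each of these shares, and for that of Lamb2, the PN14 libraries lay farther from each other than PN14 replicate 1 did from PN28. These shares were not tested.

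Nid2 made up 26.5% of nidogen FPKM at E18.5, 24.7% at PN2, 19.3% and 24.3% at PN14, then 16.3% at PN28 and 14.9% in the adult, so Nid1 led at every stage. Against Lamc1, which most laminin trimers contain, the summed α chains had a ratio near 1 at both ends, 1.02 at E18.5 and 0.962 in the adult, and lower values between (0.887 at PN2, 0.618 and 0.674 at PN14, 0.663 at PN28). The summed β chains stood at 1.51, 1.38, 1.43 and 1.23, 1.42 and 2.09 times Lamc1 in the same order, with the adult the highest. Hspg2 kept a ratio to Lamc1 between 0.73 and 0.95 in all 6 libraries. Agrn went from 0.306 of Lamc1 at E18.5 to 0.144 at PN28 and 0.187 in the adult. Summed over the 10 genes, the level was 623 FPKM at E18.5, 608 at PN2, 253 and 366 at PN14, then 228 at PN28 and 105 in the adult.

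**Figure D3:**
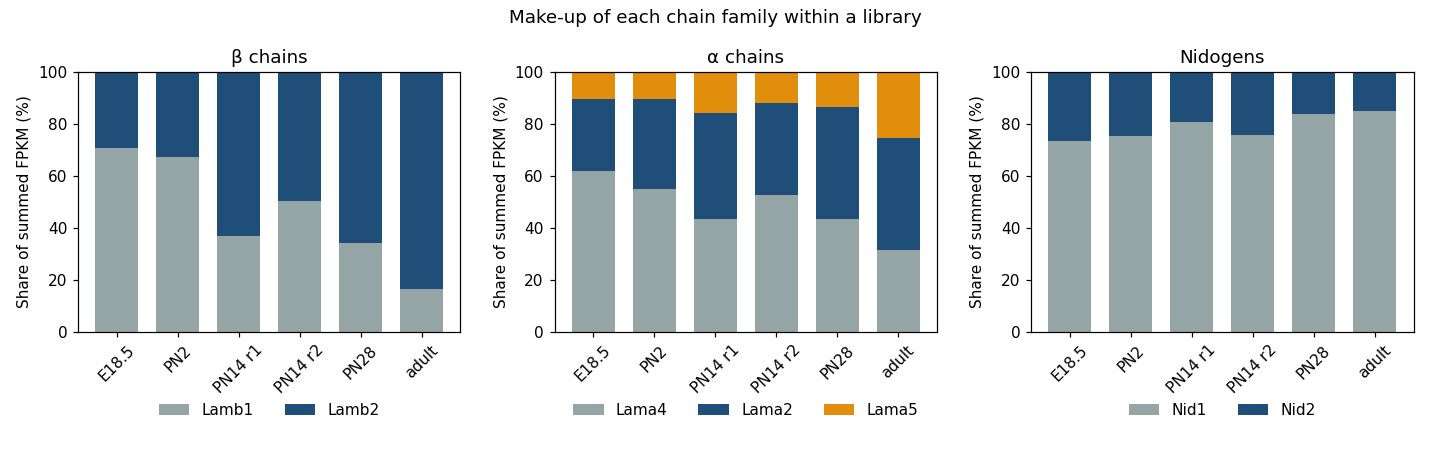
Share of the summed FPKM (vertical axis, %) that each gene takes within the β chains, the α chains and the nidogens in the 6 libraries; bars stack to the whole and carry no error. The Lamb2 share goes from 29.1% at E18.5 to 83.5% in the adult and the Lama4 share from 61.9% to 31.4%.

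Between E18.5 and PN2 the members barely differed. Their log2 fold changes were at most 0.30 in size, 0 were called and 0 had an unadjusted p under 0.05 in edgeR's test, with 0.0296% of all genes tested called. DESeq2, the exact test and library size called 0 members as well.

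From PN2 to PN14, the interval in which 23.0% of all genes tested were called, 0 members were called. Of the 10 members, 9 had a lower fitted level at PN14 (median log2 fold change −0.43), and 1, Lamb1, had an unadjusted p under 0.05. Lamb1 stood at −0.78 (SE 0.3, edgeR adjusted p = 0.0959), Lama4 at −0.73 (edgeR adjusted p = 0.128) and Nid2 at −0.65 (edgeR adjusted p = 0.16). Lamb2 alone was fitted higher, at 0.61 (SE 0.268, edgeR adjusted p = 0.132), and its sign turned with library size. DESeq2 and the exact test called 0, with 4 and 2 unadjusted p under 0.05. With library size alone 6 members were called lower, namely Lama2, Lama4, Lamb1, Nid1, Nid2 and Hspg2, where 29.4% of all genes tested were called lower. On that scale 6 members were also past 2-fold lower without a test, as were 30.0% of all genes tested. Without PN14 replicate 2, Lama4, Lamb1 and Nid2 were past 2-fold lower by TMM, as were 15.2% of all genes tested, and without replicate 1 no member was.

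From PN14 to PN28, 0 members were called, with 0.0178% of all genes tested called. Agrn had the largest difference, a log2 fold change of −0.85 (edgeR adjusted p = 0.517), and was the 1 member with an unadjusted p under 0.05. Agrn was the 1 member called lower with library size alone, where 0.995% of all genes tested were, and the 1 past 2-fold lower on that scale without a test, as were 3.33% of all genes tested. By TMM without PN14 replicate 1 it was also past 2-fold lower, as were 3.58% of all genes tested. DESeq2 and the exact test called 0.

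From PN28 to the adult, 0 members were called by the quasi-likelihood test, which called 0.521% of all genes tested, but 7 had an unadjusted p under 0.05. Lamb1 stood at 144 CPM at PN28 and 45.5 in the adult, a log2 fold change of −1.66 (SE 0.365, edgeR adjusted p = 0.102). Nid2 stood at −1.54 (edgeR adjusted p = 0.126), Nid1 at −1.39 (edgeR adjusted p = 0.144), Lamc1 at −1.17 (edgeR adjusted p = 0.194), Hspg2 at −1.16 (edgeR adjusted p = 0.225) and Lama4 at −1.11 (edgeR adjusted p = 0.216). These 6 were past 2-fold without a test, as were 7.36% of all genes tested in that direction. Lama5 was fitted higher, at 0.28 (edgeR adjusted p = 0.518), and Lamb2 lower, at −0.27 (edgeR adjusted p = 0.678).

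Which of these counted as called in that last interval depended on the test. edgeR's exact test and DESeq2 each called 5 members lower, Lamb1, Lamc1, Nid1, Nid2 and Hspg2, where they called 5.14% and 3.62% of all genes tested lower. Library size alone, in the quasi-likelihood test, called 6 lower, where 4.31% of all genes tested were, and 6 were past 2-fold lower on that scale without a test, as were 8.67% of all genes tested. The fit with no filter on low counts called Lamb1 and Nid2, where it called 3.32% of its genes lower.

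**Figure D4:**
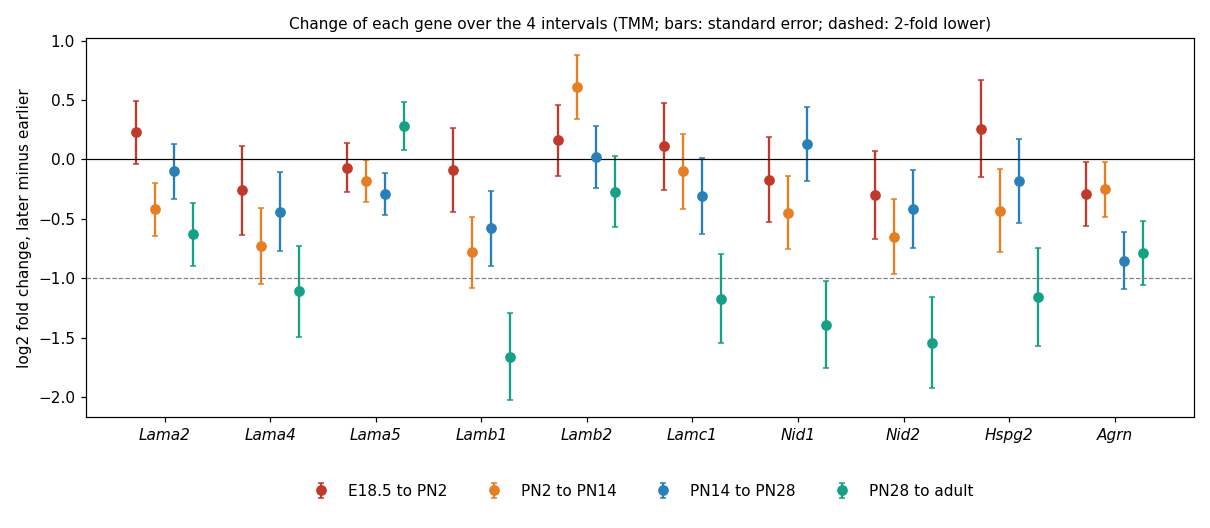
Fitted log2 fold change (vertical axis, later minus earlier stage, TMM) of the 10 genes over the 4 consecutive intervals, with standard errors as bars and a dashed line at a 2-fold fall. The PN28 to adult points of Lamb1 (−1.66), Nid2 (−1.54), Nid1 (−1.39), Lamc1 (−1.17), Hspg2 (−1.16) and Lama4 (−1.11) lie below the line, and no point of an earlier interval does.

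The PN14 libraries differed from each other in the members. Replicate 2 was higher than replicate 1 in 9 of 10 after TMM scaling, by 1.67-fold for Nid2, 1.62-fold for Lama4 and 1.44-fold for Lamb1, while Lamb2 was at 0.832 of replicate 1. The median log2 difference was 0.30 for the members and 0.0093 for all genes tested. The Schwann cell marker Mbp moved the same way, at 57.91 FPKM in replicate 1 and 233.11 in replicate 2, as did Sox10, Prx and Mag, the summed endothelial markers (871 and 1125 CPM) and the basement membrane collagens (2356 and 3195 CPM). Summed satellite cell markers were also higher in replicate 2 (38.8 and 49.4 CPM). Fibroblast markers (9371 and 9312 CPM) and pericyte and smooth muscle markers (793 and 792 CPM) differed little in summed CPM. Their summed FPKM were higher in replicate 2 (1732 and 2046, and 135 and 178). FPKM contain a shift between the replicates, a median log2 difference of 0.24 over all genes tested by library size. The similar CPM sums hid unlike moves of single markers. In FPKM every fibroblast marker was higher in replicate 2, from Col1a1 (540.81 and 562.55) to Col3a1 (372.71 and 575.59). Among pericyte and smooth muscle markers, Abcc9 was lower in FPKM (40.75 and 37.66). The rest were higher, among them Myh11 (10.19 and 11.3) and Rgs5 (44.48 and 69.24). Muscle fibre markers were lower in replicate 2 (208067 CPM in replicate 1 and 146159 in replicate 2). The part of these cell types in the PN14 values was not tested.

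The genes whose profiles over the 6 libraries were most like those of the members were found among 9429 genes that reached 5 FPKM, by the root mean square difference of centred log2 CPM. Closest to Lamb1 were Col5a3, a fibrillar collagen chain, at 0.0877, then Tceal8 and Pi15. Closest to Nid1 were Hmgb3 at 0.123 and Pcolce, an enhancer of procollagen cleavage, at 0.125, then Sh3bgrl. Nid2 lay closest to Tspan6 (0.108), Igsf10 and Marcks, and Lama4 to Snn (0.0740), Cfl1 and Rnf26. Lamc1 lay closest to Elmo1 (0.0545), Mppe1 and Lurap1l, and Hspg2 to Mppe1 (0.0643), Trim35 and Rin3. With a pseudocount of 1, Mppe1 was among the 3 nearest genes of neither.

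Among the remaining members, Lama2 lay closest to Klhl5 (0.0522), Leprot and Rasa3, Lama5 to Pdcd11 (0.0332), Zfp740 and Srek1, Lamb2 to Gtpbp2 (0.0416), Cr1l and Jarid2, and Agrn to Bmf (0.0669), Fam212b and Fam212a. Between members, Lamc1 and Hspg2 were nearest (0.116), followed by Lamb1 and Nid2 (0.147) and Lama4 and Nid2 (0.149). Of the 30 neighbours, 19 were also found with a pseudocount of 1 in place of 0.1. These are descriptions over 6 libraries.

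The remaining laminin chains, known mainly from epithelia and embryonic tissue, were low, together at 4.01 FPKM at E18.5 and 1.14 in the adult. From E18.5 to the adult, 3 of 5 were called lower and 1 higher. Of all 16882 genes tested, 3978 (23.6%) were called lower and 3606 higher. Lamb3 (1.85 to 0.26 FPKM, log2 fold change −1.84) and Lama3 (1.33 to 0.27 FPKM, −1.30) were lower, and Lama1 went from 0.17 FPKM to a listed 0. Lamc3 was higher at 0.08 and 0.27 FPKM. The keratinocyte markers Krt5, Krt14 and Krt10, all 3 called lower, summed to 17.3 FPKM at E18.5 and to at most 2.87 in every later library, with Krt5 and Krt14 at 0 counts in PN14 replicate 1, PN28 and the adult. The part of skin in the values of these chains was not tested.

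Of the 8 basement membrane collagens, 5 were called lower from E18.5 to the adult and 2 higher, with a median log2 fold change of −1.81. Among all 16882 genes tested, 23.6% were called lower and 3606 genes higher. Col4a1 and Col4a2, the chains of the common collagen IV, went from 308.51 to 15.79 FPKM (log2 fold change −3.26) and from 176.52 to 12.68 FPKM (−2.77). Col18a1, the source of endostatin, fell by 3.65 on the log2 scale, Col15a1 by 1.94 and Col4a5 by 1.67. Col4a3 and Col4a4, chains of the specialised collagen IV of kidney and lung, rose at low levels, from 0.02 to 0.28 FPKM and from 0.09 to 0.32 FPKM. Of 12 other basement membrane proteins, 8 were called lower and 0 higher (median −2.52), led by the integrin ligand Npnt (−3.86), the Fraser complex proteins Frem1 (−3.56) and Frem2 (−3.33), and Smoc1 (−3.06). With library size alone, 5 of the 8 collagens were called lower and 2 higher. On that scale 10 of the 12 other proteins were called lower and 0 higher, where 45.6% of all genes tested were called lower.

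The receptors for laminin were mixed, with 2 called lower, 2 higher and 3 not called. Of all 16882 genes tested, 23.6% were called lower and 3606 genes higher, so these counts were near those of all genes. Itga6 (−1.29) and Bcam (−1.28), an integrin chain and a laminin α5 receptor, were lower, and Itgb4 (1.58) and Itga3 (1.22) were higher. Dag1, the dystroglycan gene, stood at 134.69 FPKM at E18.5 and 55.47 in the adult, a log2 fold change of −0.25 by TMM that was not called. Among enzymes that build the laminin-binding glycan of dystroglycan, B3galnt2 (2.92), Tmem5 (1.35), Gtdc2 (1.18) and Pomgnt1 (1.04) were called higher and Gmppb (−1.15) lower. With library size alone, B3galnt2 was still called higher and Gmppb and Pomt2 were called lower. On that scale 5 of the 7 receptors were called lower (Itga6, Bcam, Itgb1, Dag1 and Itga7) and 0 higher, with Dag1 at −1.28. Library size alone called 45.6% of all genes tested lower.

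In the agrin pathway, 2 of 11 genes were called higher and 3 lower. These counts were near those of all 16882 genes tested, of which 3606 were called higher and 23.6% lower. The agrin receptor subunit Lrp4 fell by 1.18 on the log2 scale and the kinase Musk rose by 1.14. Among acetylcholine receptor subunits, the embryonic Chrng went from 83.6 to 0.13 FPKM (log2 fold change −8.29), Chrnd fell by 4.46, and the adult subunit gene Chrne went from 0.52 to 15.42 FPKM (5.91). Of 7 proteases and inhibitors that act on the matrix, Mmp14 (−3.58), Mmp9 (−3.51) and Timp1 (−3.48) were called lower and Timp3 (1.19) higher. With library size alone, 7 of the 11 agrin pathway genes were called lower and 1, Chrne, higher. On that scale 5 of the 7 proteases and inhibitors were called lower and 0 higher, so Musk and Timp3 were not called. Of all genes tested, 45.6% were called lower there. Within PN28 to the adult, Col4a5 was the 1 gene called in the quasi-likelihood test among these lists of laminins, collagens, other basement membrane proteins, receptors, glycan enzymes, agrin pathway genes and proteases. That test called 0.521% of all genes tested. With library size alone, 5 of the 8 collagens, 5 of the 12 other basement membrane proteins, 2 of the 7 proteases and inhibitors and Chrng were called lower. On that scale 4.31% of all genes tested were called lower.

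**Figure D5:**
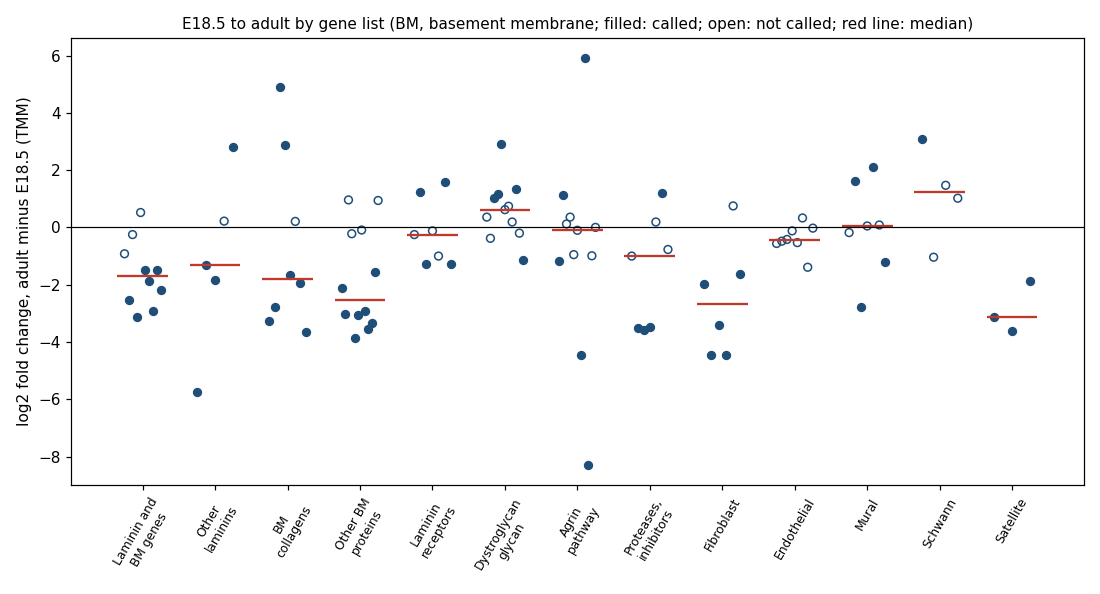
Log2 fold change from E18.5 to the adult (vertical axis, TMM) of each gene in the lists named along the horizontal axis; filled points are called, open points are not, and red lines are medians. The basement membrane collagens (median −1.81) and other basement membrane proteins (−2.52) lie below 0 in the main.

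Markers of other cell types differed in direction from E18.5 to the adult, where 23.6% of the 16882 genes tested were called lower and 3606 genes higher. Of 6 fibroblast markers, 5 were called lower (Col1a1 −4.45, Col3a1 −4.45, Col1a2 −3.39, Pdgfra −1.97, Lum −1.63). The other, Dcn, was not called, at 393.19 FPKM at E18.5 and 329.04 in the adult, fitted higher by TMM and lower by library size. The summed level of all 6 went from 20198 CPM at E18.5 to 2098 in the adult, with 9312 to 16375 in between. Of 8 endothelial markers, 0 were called by edgeR's quasi-likelihood test (median −0.45; Cldn5 alone had an unadjusted p under 0.05), and their sum was 539 CPM at E18.5, 547 at PN2, 871 and 1125 at PN14, then 666 at PN28 and 398 in the adult. Library size alone called 7 of the 8 lower, where it called 45.6% of all genes tested lower. Pericyte and smooth muscle markers had 2 called higher (Abcc9 2.11, Rgs5 1.63) and 2 lower (Cspg4 −2.77, Notch3 −1.21) of 7. Their median log2 fold change was 0.05 by TMM and −0.98 by library size. Their sum went from 529 CPM at E18.5 to 862 in the adult, but only Abcc9 (26.24 to 55.3) and Rgs5 (21.41 to 32.5) rose in FPKM.

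All 3 satellite cell markers were called lower (Myf5 −3.60, Pax7 −3.14, Cdh15 −1.86), from a sum of 115 CPM to 26.9. The Schwann cell marker Mbp, a myelin protein gene, was called higher (log2 fold change 3.07), from 14.72 FPKM at E18.5 to 63.56 in the adult. Sox10, Prx and Mag were not called, and Sox10 stood at 5.5 FPKM at E18.5 and 1.32 in the adult, which library size alone called lower. Adipocyte markers had 4 of 5 called higher (Cfd 9.96, Cidec 6.76, Plin1 4.74, Adipoq 4.62). Of 6 muscle fibre markers, Myh4, the fast myosin heavy chain, was called higher (9.13), with 0 fitted lower and a median of 2.71. Their sum went from 27359.7 to 263436 CPM by TMM and from 31389 to 104897 in FPKM. With library size alone 5 of the 6 were called higher (median 1.69), where 1347 of all 16882 genes tested were. None of the defining markers of endothelial, mural, fibroblast, Schwann or satellite cells was at 0 counts in any library. The part of any cell type in the change of the laminin and basement membrane genes was not tested.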

How the data were processed

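Gastrocnemius RNA was measured in 6 libraries at 5 stages. The authors aligned reads to mm9 with TopHat2 2.0.5 and deposited RSEM expected counts (estimated counts, not normalised) and RSEM FPKM values for 23367 gene entries, and library preparation strand is not given in the sources used here. The expected counts, rounded, were analysed in R 4.3.3 with edgeR 4.0.16 (TMM, filterByExpr by stage, quasi-likelihood test, all libraries in a single fit, 1 residual degree of freedom, prior 4.86), and p-values were adjusted by Benjamini-Hochberg over all genes tested. The PN14 libraries are labelled replicates, and p-values measure the spread of that pair. Alternatives were library size alone, DESeq2 1.42.0 (its size factors or its Wald test), edgeR's exact test, no filter or a mean of 1 CPM, a 2-fold count without a test from log2(CPM + 0.1), and either PN14 library left out. Each alternative quasi-likelihood fit estimated its own spread and prior, and the prior of 4.86 holds for the main fit. FPKM shares and ratios were taken within a library.

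The members and lists were chosen with earlier results of these data known. All members were described. From each of the 15 other lists, at most 4 called genes with the largest log2 fold change were named, and further genes where a count of 5 or fewer called for it, or Dag1, Dcn, Acta1 and the genes of an acetylcholine receptor, were named after their values were seen. For each member, 3 genes with the nearest profile were named. Of the listed genes, 1 was not matched and 2 were matched by another name. Promoters came from RefSeq's table (250 bases before the start, cut where a gene model starts earlier). Figures used Python 3.11.15 and matplotlib 3.10.9. Values of 3 listed genes are not reported here, and the plot of the lists leaves them out. Splicing was not analysed here.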

Additional observations from a re-analysis of the deposited data

How the results depend on the processing

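Over the alternatives, the 7 genes called lower from E18.5 to the adult stayed within 1.5 times in number (7 to 9), and no setting called a member from E18.5 to PN2. With library size alone, and also with the 2-fold count on that scale (chosen after seeing the data), 6 members were called for PN14 against PN2, 1 for PN28 against PN14 and 6 for the adult against PN28, in place of 0. From PN28 to the adult, DESeq2 called 5, the exact test 5, the fit without a filter 2 (Lamb1 and Nid2) and the 2-fold count 6. With library size Lamb1 stood at −1.80 (SE 0.375) there, close to its −1.66 (SE 0.365) by TMM. The library size fit also estimated its own spread and prior, so scaling and the estimate of spread changed together. The cause of the differences in calls was not tested. Leaving out a PN14 library, which allowed a 2-fold count and no test, gave 0 to 3 members from PN2 to PN14 (Lama4, Lamb1 and Nid2 without replicate 2) and 0 to 1 from PN14 to PN28 (Agrn without replicate 1).

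The sign of Lamb2 turned with library size, in the fit and the 2-fold count alike, to −0.055 for PN14 against PN2, −0.20 for PN28 against PN14 and −0.51 for the adult against E18.5. For PN28 against PN14, leaving out a PN14 library moved Lamb2 between −0.11 and 0.16, Nid1 between −0.014 and 0.30 and Lama2 to 0.0096 without replicate 2, and Nid1 was −0.12 with library size. Lamc1 at PN14 against PN2 lay between −0.26 and 0.04 when either was left out. None of these was called.

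Taking shares on counts, which do not divide by transcript length, gave Lama2 35.4% at E18.5, 42.6% at PN2, 47.4% and 43.2% at PN14, then 50% at PN28 and 46.5% in the adult, so that it led from PN2 on. In the same order, Lama4 became 49.1%, 42.1%, 31.1%, 39.7%, 31.5% and 21.1%, and Lama5 15.6%, 15.3%, 21.5%, 17.1%, 18.5% and 32.5%. The Nid2 share became 22.5%, 20.9%, 16.2%, 20.6%, 13.5% and 12.4%. No paired analysis was possible because only PN14 had 2 libraries. No member had under 2231 counts in any library.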
